A study of Mus musculus with 4 samples.

Results

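The 10 genes described here encode alpha tubulin (Tuba1a, Tuba1b, Tuba1c, Tuba4a, Tuba8) and beta tubulin (Tubb2a, Tubb2b, Tubb3, Tubb4a, Tubb5) isotypes. They were taken by symbol from 23444 gene symbols in each of 4 deposited gene tables of primary mouse oligodendrocytes, the myelin-forming glia, and all 10 were found in every table. The cells were precursors differentiated for 1 day with T3 (thyroid hormone), and all came from mice of mixed background. The 2 control libraries carry a genotype label that names lncOL1+/+ and lncOL1+/- together, so which of the genotypes each control had is unknown, and the 2 knockout libraries are lncOL1-/-. lncOL1 is a long noncoding RNA, and the study asked which genes differ when it is lost. The members were chosen by the FPKM values of these same libraries, with the knockout-to-control differences of the per-sample tables and of the authors' own comparison in view. Those differences, and the p-values beside them, therefore describe the libraries and are no independent test of these genes.

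Microtubules are polymers of dimers that each join an alpha and a beta tubulin. Mammals have several genes for each, the isotypes, whose proteins are very alike except in the acidic tail at the end of the chain, which faces outward and is modified by enzymes that remove or restore a tyrosine, add glutamate chains or acetylate a lysine elsewhere in the alpha subunit. In oligodendrocytes, microtubules carry membrane and messenger RNA into the growing processes and the myelin sheath. Tubb4a is known for its high level in these cells and for mutations that cause a leukodystrophy, a disease of myelin.

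The RNA of these genes is also very alike, which bears on every value below. Reference transcripts (GENCODE M21, build GRCm38, the same assembly as the mm10 of the deposited files) were compared, with 1 principal transcript per gene. The coding region, stop codon left out, has 1353 bases in Tuba1a and Tuba1b and 1347 in Tuba1c. Tuba1a and Tuba1b were identical at 98.3% of aligned positions (23 differing), Tuba1b and Tuba1c at 97.9% (28 differing) and Tuba1a and Tuba1c at 97.1% (39 differing). Tubb2a and Tubb2b, each of 1335 coding bases, were identical at 96.5% (47 differing). The closest pairs beyond these among the members reached 85.3% (Tuba1c and Tuba4a) and 84.6% (Tubb2a and Tubb5).

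The last 66 coding bases encode the tail by which isotypes differ most, and in the 5 beta members they lie in the last exon. They are shown for these genes to compare the near-identical pair Tubb2a and Tubb2b with well separated genes. Capitals mark bases that differ from Tubb2a in the alignment of whole coding regions, bases with no partner in Tubb2a included. Bases of Tubb2a with no partner in the other gene are neither marked nor counted. Tubb2b has 3 capitals, Tubb4a has 9, Tubb5 has 12 and Tubb3 has 33.
Tubb2a: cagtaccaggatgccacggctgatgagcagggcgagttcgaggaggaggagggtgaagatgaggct
Tubb2b: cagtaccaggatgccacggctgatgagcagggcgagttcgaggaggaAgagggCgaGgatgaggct
Tubb4a: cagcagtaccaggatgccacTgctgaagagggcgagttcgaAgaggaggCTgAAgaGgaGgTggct
Tubb5: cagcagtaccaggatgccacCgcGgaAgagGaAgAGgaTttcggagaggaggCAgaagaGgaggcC
Tubb3: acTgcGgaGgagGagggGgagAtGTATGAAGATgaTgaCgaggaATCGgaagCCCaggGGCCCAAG

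The share of each transcript that other genes hold word for word was then counted, in words of 50 bases on either strand of all GENCODE transcripts. Of the 50-base words, 64.6% in Tuba1b, 59.8% in Tuba1c and 52.0% in Tuba1a occurred in another alpha or beta tubulin gene. Between genes, 1005 words were common to Tuba1b and Tuba1c, 822 to Tuba1a and Tuba1c and 761 to Tuba1a and Tuba1b. For Tubb2a and Tubb2b the shares were 45.6% and 33.4%, nearly all of it in each other (712 words in common). Tubb4a (0.184%), Tuba8 (0.181%), Tubb5 (0.0385%), Tubb3 and Tuba4a (0 for both) had almost none. With words of 100 bases the shares were 52.3%, 53.4% and 38.4% for Tuba1b, Tuba1c and Tuba1a and 35.9% and 26.1% for Tubb2a and Tubb2b. Pseudogenes add to this, since 13 or 14 of them held words of each of the 3 Tuba1 genes (66.2% of those of Tuba1b). Tuba4a shared 48.8% of its words with other gene records, almost all in the part after its coding region, where the record of Stk16 holds the same bases, and 14.7% of the words of Tuba8 were in other records, chiefly the antisense gene Gm15856, so low values of both are uncertain.

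**Figure D1:**
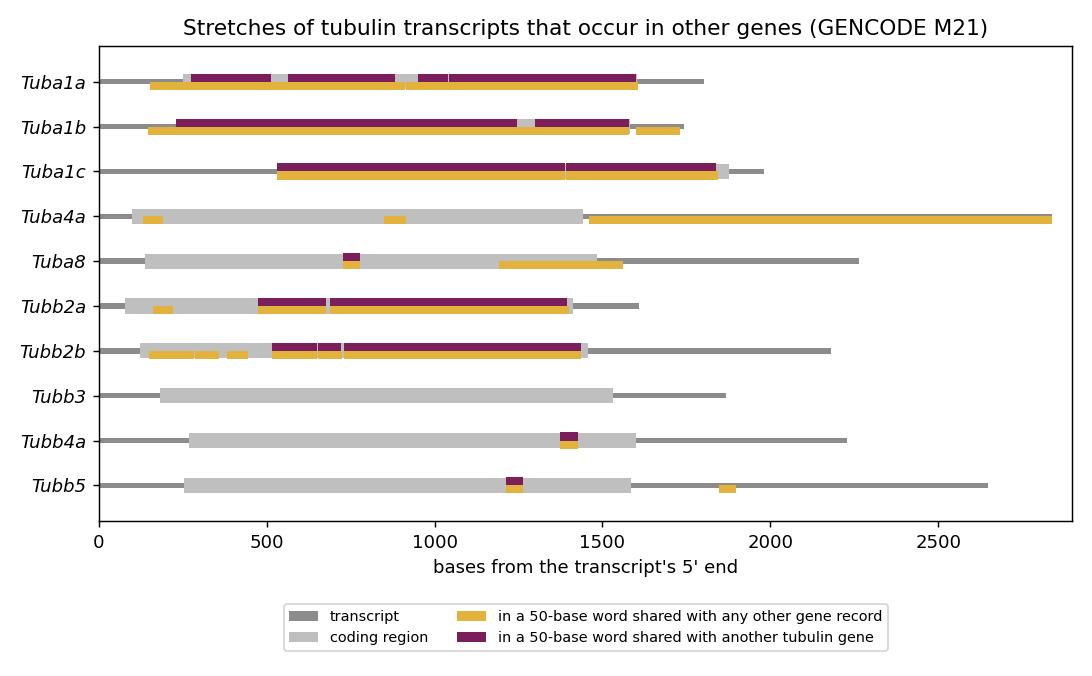
Principal transcripts of the 10 members, drawn to scale in bases from their 5' end (thin grey bar, transcript; thick grey bar, coding region). Purple marks bases inside a 50-base word that also occurs in another alpha or beta tubulin gene, and yellow those inside a word found in any other gene record: purple covers most of the coding regions of Tuba1a, Tuba1b and Tuba1c and much of those of Tubb2a and Tubb2b, and is nearly missing elsewhere.

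The libraries were checked against their labels first. lncOL1 (9630013A20Rik in the files) was at 28.9 and 34.01 FPKM, a level scaled to transcript length and library size, in control replicates 1 and 2 and at 5.54 and 5.06 in knockout replicates 1 and 2. All 11 oligodendrocyte lineage markers on the list used averaged at least 1 FPKM, and their sum was 8261 and 8387 FPKM in the controls versus 7694 and 7856 in the knockouts. Of these 11, limma called 0, with 5 at an unadjusted p under 0.05 (2 higher and 3 lower). Over all 11361 genes tested, 810 were higher and 748 lower at that unadjusted p. Of all genes tested, 5841 had a positive and 5520 a negative log2 fold change. Such counts in this and later lists are to be read beside that background. Of these markers the authors' deposited table calls 2 lower, Mag (log2 fold change -0.54) and Enpp6 (-0.24, q = 0.00572), and Mag had an adjusted p of 0.0579 by limma. Read counts are not in these files. The depth behind a value is therefore unknown, and how precise it is was judged here only from how far replicates lie apart. The labels do not tie libraries of a group to separate animals or cultures. A p-value here reflects how far these samples lie apart, and that distance may be technical alone.

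Alpha tubulin RNA was almost all listed under 1 gene in the per-sample files. Tuba1a (chromosome 15, 98949837 to 98953703, minus strand), the alpha isotype known from developing neurons and glia, was at 2568.4 and 2568.5 FPKM in the controls versus 2760 and 2847 in the knockouts. It was among the 4 most abundant genes of every library (rank 2 to 4). Its share of the summed FPKM of the 5 alpha members was 95.9% for each control and, for the knockouts, 93.9% and 93.7%.

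Tuba1b (chromosome 15, 98931425 to 98934565, minus strand), a broadly expressed alpha isotype, was far lower, at 92.1 and 93.3 FPKM in the controls versus 141.8 and 147.9 in the knockouts. Tuba1c (chromosome 15, 99029891 to 99038110, plus strand), another broadly expressed isotype, was at 17.4 and 15.7 FPKM in the controls versus 38.1 and 42.9 in the knockouts. For both genes each knockout library stood above each control library. Tuba1b lies beside Tuba1a on the same strand, and Tuba1c lies in the same region on the other strand.

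The remaining alpha members were listed near 0. Tuba4a (chromosome 1, 75214228 to 75219865, minus strand) was at 0.289 and 0.379 FPKM in the controls versus 0.308 and 0.490 in the knockouts, and its groups overlapped. Tuba8 (chromosome 6, 121210696 to 121226854, plus strand), another alpha isotype, was listed at 0 for each control and, for the knockouts, at 0.255 and 0.0856 FPKM. Both were below the minimum mean of 1 FPKM for a gene to be tested, and no fold is given for Tuba8.

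Beta tubulin RNA was led by Tubb4a, with a broader spread over isotypes. Tubb4a (chromosome 17, 57080066 to 57087782, minus strand), the isotype abundant in oligodendrocytes, was at 2281 and 2366 FPKM in the controls versus 2273 and 2403 in the knockouts, and its groups overlapped. It made up 67.5% and 69.9% of the summed FPKM of the 5 beta members in the controls versus 68.1% and 69.2% in the knockouts. Tubb2b (chromosome 13, 34126748 to 34130466, minus strand), known from the developing brain, was at 552.9 and 486.8 FPKM in the controls versus 567.3 and 534.3 in the knockouts, again with overlap.

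Tubb5 (chromosome 17, 35833921 to 35838306, minus strand), a beta isotype of most cells, was at 338.5 and 348.8 FPKM in the controls versus 315.9 and 340.1 in the knockouts. Tubb2a (chromosome 13, 34074274 to 34078007, minus strand) was at 181.0 and 154.8 FPKM in the controls versus 156.6 and 164.7 in the knockouts. Groups overlapped for both genes. Tubb3 (chromosome 8, 123411424 to 123422015, plus strand), the isotype used as a neuron marker, was at 27.8 and 27.7 FPKM in the controls versus 27.1 and 28.2 in the knockouts, which overlap.

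Most neuron markers were near 0 in the same libraries. Of 12 neuron markers, 8 were under 1 FPKM in all 4 libraries. The summed level of the 12 was 135.7 and 132.5 FPKM in the controls versus 102.6 and 98.3 in the knockouts, most of it from Elavl3 (82.5 ± 3.71 FPKM in the knockouts, SD, n = 2), the 1 gene of that list called by limma (log2 fold change -0.51, adjusted p = 0.0263). The table of the authors likewise calls 1 gene of that list, as lower. Of the 4 neuron markers tested, the other 3 had positive log2 fold changes and were not called. These were Syp (0.18, adjusted p = 0.355 by limma), Elavl4 (0.15) and Snap25 (0.10).

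Across the 10 members and both groups, the order of levels in the per-sample files was Tuba1a, Tubb4a, Tubb2b, Tubb5, Tubb2a, Tuba1b, Tubb3, Tuba1c, Tuba4a and Tuba8 in control. In the knockout Tuba1c (38.1 and 42.9 FPKM) stood above Tubb3 (27.1 and 28.2), and the rest of the order was as in control. In this order no member's 2 libraries overlapped those of its neighbour within a group. The order differed in the authors' deposited table. There Tuba1c stood above Tubb3 in control too (282.9 against 26.0 FPKM). Tuba1b (470.2) stood above Tubb5 (322.6) and Tubb2a (312.4) in control there.

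**Figure D2:**
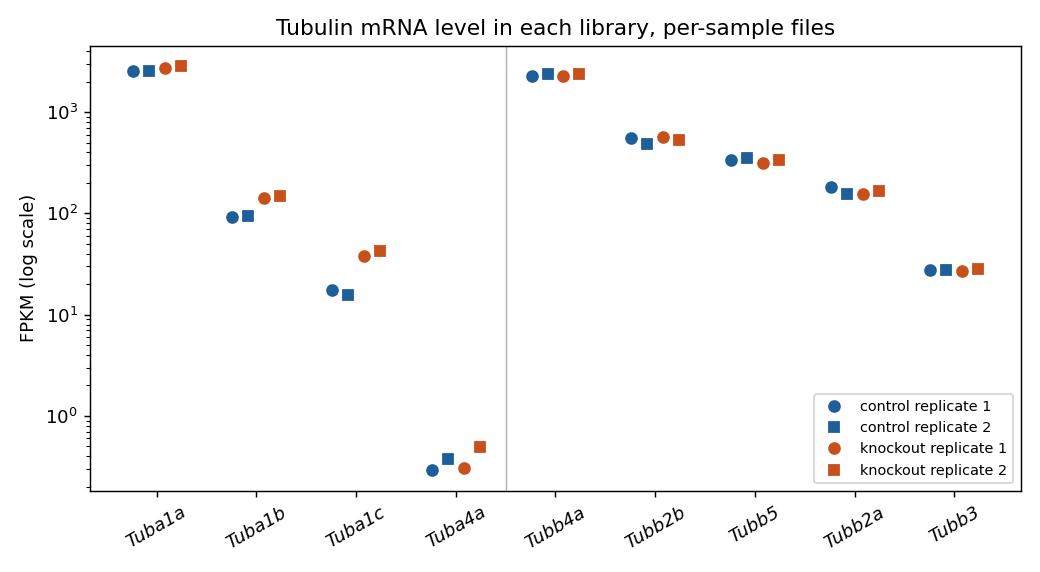
FPKM of 9 members in each of the 4 libraries (log axis), alpha genes left and beta genes right of the grey line; circles are replicate 1, squares replicate 2, blue control and orange knockout. Tuba8, listed at 0 in both control libraries, is left out. The 2 knockout points lie above both control points for Tuba1a, Tuba1b and Tuba1c, and the groups overlap for the other 6 genes.

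Of the 10 members, 8 averaged at least 1 FPKM across the libraries and so passed the filter on low values. In the limma fit of log2(FPKM + 1) over all 11361 genes tested, 2 of the 8, Tuba1b and Tuba1c, were called higher in the knockout (adjusted p under 0.05, Benjamini-Hochberg over all genes tested), 0 were called lower and 6 did not pass. Over all genes tested, 0.528% were called higher and 0.783% lower, 1.31% in either direction. Nothing is read from that contrast, since the members were chosen with it in view. Fold changes on this scale understate the change of low genes. The log2 fold changes of the 8 ranged from -0.07 to 1.24 with a median of 0.05, against a median of 0.005 over all genes tested.

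For Tuba1c the log2 fold change was 1.24 ± 0.089 (SE; adjusted p = 0.00433 by limma), from 16.5 ± 1.18 FPKM in control to 40.5 ± 3.38 in the knockouts (SD, n = 2 each). For Tuba1b it was 0.64 ± 0.067 (SE; adjusted p = 0.0113 by limma), from 92.7 ± 0.818 to 144.9 ± 4.31 FPKM. Tuba1a, the abundant one, had 0.13 ± 0.069 (SE; adjusted p = 0.503 by limma), from 2568.5 ± 0.0990 to 2803 ± 61.6 FPKM. The groups of all 3 did not overlap, which held with the knockout above for 22.6% of all genes tested (43.4% without overlap in either direction). The call of Tuba1c was lost without knockout replicate 2 (adjusted p = 0.0700). That of Tuba1b was lost whichever library was dropped (adjusted p = 0.0892 to 0.139). Both calls were also lost with no filter on low values (adjusted p = 0.0600 for each).

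The beta members were all within 0.09 of no change. Log2 fold changes were 0.09 for Tubb2b (SE 0.086), 0.01 for Tubb4a (SE 0.072), -0.004 for Tubb3 (SE 0.067), -0.06 for Tubb2a (SE 0.092) and -0.07 for Tubb5 (SE 0.073), with limma adjusted p from 0.757 to 0.986. The sign for Tubb3 turned to 0.0069 after quantile normalization, and those for Tubb2a, Tubb2b, Tubb3 and Tubb4a turned when single libraries were left out. Quantile normalization also moved Tubb4a to 0.16 (limma adjusted p = 0.206), outside that range of 0.09.

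Because Tuba1a, Tuba1b and Tuba1c share many 50-base words, their sum was also taken. Tuba1a, Tuba1b and Tuba1c together were at 2677.9 and 2677.5 FPKM in the controls versus 2940 and 3038 in the knockouts, 11.6% higher, and no test was run on the sum. Of the difference of 311.0 FPKM in the sum, 234.9 FPKM were in Tuba1a, 52.2 in Tuba1b and 23.99 in Tuba1c. Tubb2a and Tubb2b together were at 733.9 and 641.6 FPKM in the controls versus 723.9 and 699.1 in the knockouts, with overlap. The 5 beta members summed to 3381 and 3384 FPKM in the controls versus 3340 and 3471 in the knockouts.

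The authors' deposited table, which gives 1 FPKM per group, lists the same genes at other levels. In that table Tuba1c is at 282.9 FPKM in the controls versus 318.0 in the knockouts, 17.1 and 7.85 times the mean of the per-sample files. Tuba1b is at 470.2 and 583.3 FPKM there, 5.07 and 4.03 times that mean. Tuba1a is at 4486 and 4622 FPKM, 1.75 and 1.65 times that mean.

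Tubb2a and Tubb2b were also listed higher there. The authors' deposited table gives 312.4 and 285.2 FPKM for Tubb2a (1.86 and 1.78 times the per-sample mean) and 802.4 and 807.5 FPKM for Tubb2b (1.54 and 1.47 times). For Tubb4a it gives 2072 and 1966 FPKM, for Tubb5 322.6 and 289.7 and for Tubb3 26.0 and 24.3, which are 0.892, 0.939 and 0.938 times the per-sample mean in control. For Tuba4a it gives 0.330 and 0.372 FPKM, and for Tuba8 0 and 0.146.

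Over 11121 genes tested here and by the authors, the median ratio between the authors' control value and the mean of the per-sample control values was 1.03, and 1.04% of genes were above 1.5. Above 10 there were 7 genes. Tuba1c was 1 of these 7, and Tuba1b was 1 of the 12 genes above 5. Of the tubulin genes with a ratio, the 5 with at least 10% of their 50-base words in another tubulin gene (a limit set after the values were seen) had control ratios from 1.54 to 17.1. The 6 others with a ratio, Tubb4b and Tubb6 included, had control ratios from 0.892 to 0.992. Tuba3a (32.4% of words in another tubulin) and Tuba3b (27.4%) also pass that limit but are listed at 0 in both sources, so they have no ratio. Tubb4b, which shares 50.9% of its words with pseudogenes but 0 with another tubulin, was at 0.992. The sources used here do not say how the authors' tools divided shared reads in each kind of file, and the part of this in the ratios was not tested. The pseudogene Tubb2a-ps2, named after its values were seen, was at 0.0777 to 0.146 FPKM in the per-sample files and at 4.71 and 4.82 in the authors' deposited table.

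**Figure D3:**
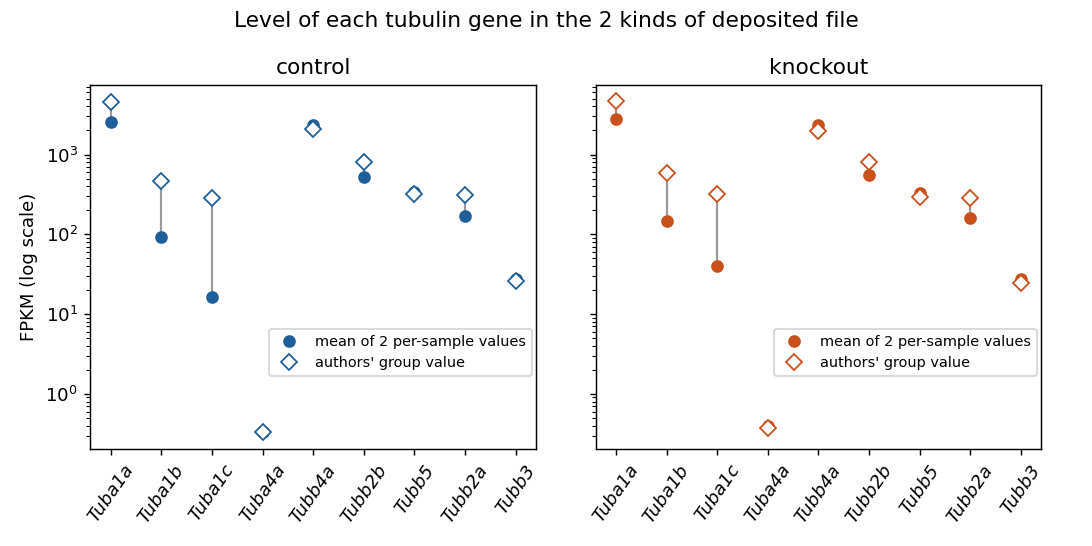
FPKM of 9 members (log axis) in control (left) and knockout (right): filled circles are the mean of the 2 per-sample values, open diamonds the authors' group value, joined by a line. The diamonds lie far above the circles for Tuba1b and Tuba1c, less far for Tuba1a, Tubb2a and Tubb2b, and close to them for Tuba4a, Tubb3, Tubb4a and Tubb5.

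The size of the knockout difference changed with the file too. The authors' deposited table gives log2 fold changes of 0.17 for Tuba1c (q = 0.101), 0.31 for Tuba1b (q = 6.24e-05) and 0.04 for Tuba1a (q = 0.966). It calls 1 of the 8 members higher, Tuba1b, and 0 lower, against 1.74% of the 12518 genes it tests called higher and 4.04% called lower (5.78% in all). For the beta members it gives 0.01 for Tubb2b, -0.08 for Tubb4a, -0.10 for Tubb3, -0.13 for Tubb2a and -0.15 for Tubb5, with q from 0.165 to 0.991. Both comparisons use the same 4 libraries, so neither supports the other.

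For most genes the files differed little in this respect. The log2 ratio of knockout to control in the authors' deposited table, less that of the per-sample means, had a median of -0.04 over the 11121 genes, and 35 genes (0.315%) lay more than 0.2 from it. Tuba1c, with a difference of -1.12, and Tuba1b, with -0.33, were among these 35, and 6 and 19 genes lay further out than each. The other 6 tested members had differences of -0.07 to -0.09. Summed over Tuba1a, Tuba1b and Tuba1c, the authors' values were 5239 FPKM in the controls versus 5523 in the knockouts, a log2 ratio of 0.08 against 0.16 from the per-sample files.

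**Figure D4:**
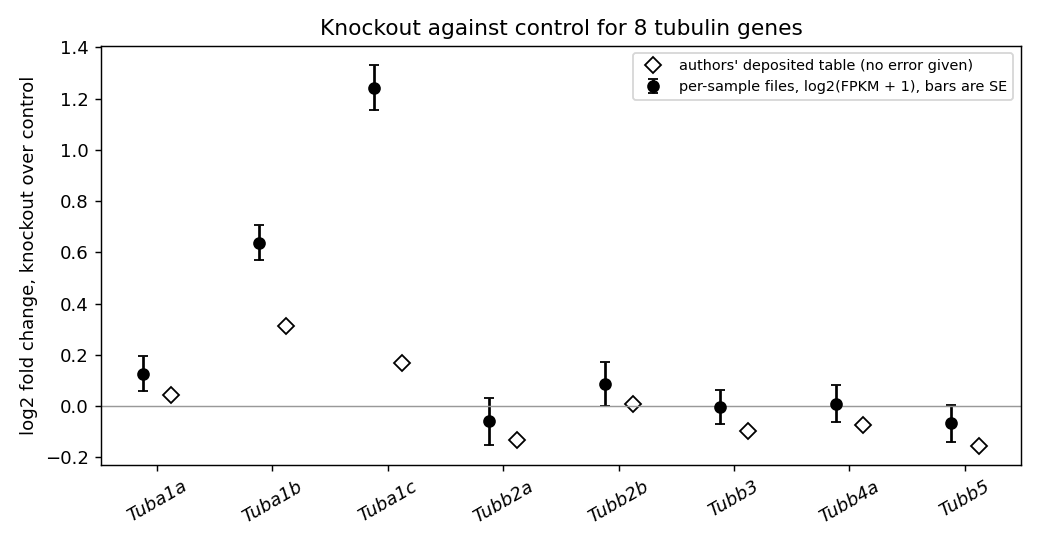
Log2 fold change, knockout over control, of the 8 tested members: filled circles with SE bars are from the limma fit of log2(FPKM + 1) in the per-sample files, open diamonds are from the authors' deposited table, which gives no error. The sources are furthest apart for Tuba1c (1.24 against 0.17) and Tuba1b (0.64 against 0.31).

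Shares and balances between isotypes depended on the file as well. In the per-sample files Tuba1c was 0.649% and 0.586% of the summed alpha FPKM in the controls versus 1.30% and 1.41% in the knockouts, whereas the authors' deposited table gives shares of 5.40% and 5.76%. Tuba1b was 3.44% and 3.48% in the controls versus 4.82% and 4.87% in the knockouts, against 8.97% and 10.6% in the authors' deposited table. The share of Tuba1a in that table was 85.6% in control and 83.7% in the knockout. Tubb4a there made up 58.6% and 58.3% of the summed FPKM of the 5 beta members. The summed alpha over the summed beta members was 0.792 and 0.791 in the controls versus 0.880 and 0.875 in the knockouts in the per-sample files, and 1.48 and 1.64 in the authors' deposited table. Summed alpha was thus below summed beta in the per-sample files and above it in the authors' deposited table.

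Other alpha and beta tubulin genes, which the choice of members left out, gave no call: of 6 listed, 2 were tested, 0 of them had an unadjusted p under 0.05, and the authors' deposited table likewise calls 0. Tubb4b, a beta isotype of many cell types, was at 157.5 and 139.0 FPKM in the controls versus 152.2 and 147.2 in the knockouts (log2 fold change 0.02 ± 0.083 SE, adjusted p = 0.965 by limma). The range of Tubb4b overlapped that of Tubb2a in control. Tubb6 was at 9.43 and 8.11 FPKM in the controls versus 7.08 and 7.96 in the knockouts, without overlap (log2 fold change -0.20 ± 0.097 SE, adjusted p = 0.448 by limma). Tuba3a, Tuba3b, Tubal3 and Tubb1 were listed at 0 in all 4 libraries.

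Tubulins outside the dimer gave no call. Of 3 tested genes of gamma, delta and epsilon tubulin 0 were called and 0 had an unadjusted p under 0.05, and the smallest adjusted p by limma was 0.773. Gamma tubulin starts new microtubules, and its main gene Tubg1 was at 26.3 and 26.0 FPKM in the controls versus 25.7 and 25.1 in the knockouts. Tubd1, delta tubulin of the centriole, was at 3.78 and 3.56 FPKM in the controls versus 4.76 and 3.48 in the knockouts. Of 9 genes of the gamma-tubulin ring complex, the template for a new microtubule, 0 were called and 1 had an unadjusted p under 0.05 (Mzt1, log2 fold change 0.23, limma adjusted p = 0.282). Tubgcp3 and Mzt2 had log2 fold changes of 0.04 and 0.10. The authors' deposited table calls 0 genes of either list.

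The genes that fold tubulin (prefoldin, the chaperonin CCT and the tubulin cofactors) did not pass the test either. Of 21 tested 0 were called and 1 had an unadjusted p under 0.05, with 9 positive and 12 negative log2 fold changes and a median of -0.03. Cct5 and Cct2, chaperonin subunits with the highest levels on this list, were at -0.04 and -0.05. The gene under 0.05 was Tbcel, a cofactor-like protein, with a log2 fold change of -0.24 (limma adjusted p = 0.251), and the authors' deposited table calls Tbcel lower (q = 0.00269). The authors' deposited table calls 0 of the others.

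Among 23 genes of enzymes that modify tubulin 18 were tested, 0 were called and 0 had an unadjusted p under 0.05, with a median log2 fold change of -0.02. Sirt2, a tubulin deacetylase abundant in myelin, was at 2187 and 2225 FPKM in the controls versus 1999 and 2057 in the knockouts, without overlap (log2 fold change -0.12 ± 0.069 SE, adjusted p = 0.516 by limma). Atat1, which acetylates alpha tubulin, had a log2 fold change of -0.09 (limma adjusted p = 0.667). Ttl, which restores the terminal tyrosine, had 0.09, and Vash1 and its partner Svbp (Ccdc23 in the files), which remove it, had 0.13 and 0.06, and limma called 0 of these. Ttll5 (q = 0.0220) is the 1 gene of the 18 that the authors' deposited table calls, as lower. For the 3 genes that act when tubulin protein is in excess to degrade tubulin RNA, Ttc5 had a log2 fold change of 0.13, Cnot11 of -0.05 and Scaper of -0.07, and the limma adjusted p was at least 0.624. Of these 3, 0 had an unadjusted p under 0.05 and the authors' deposited table calls 0.

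Marker levels of other cell types and of dividing cells also differed between the groups in which Tuba1b and Tuba1c differed. The summed level of 12 microglia and macrophage markers was 10.2 and 12.1 FPKM in the controls versus 21.6 and 27.3 in the knockouts. Of the 12, 5 were under 1 FPKM in every library. All 6 tested had positive log2 fold changes, 5 at an unadjusted p under 0.05, and limma called 2 higher. The authors' deposited table calls Laptm5 (q = 1.26e-07), Aif1 (q = 0.0147) and Cx3cr1 (q = 0.0229) higher. Aif1 and Cx3cr1 averaged under 1 FPKM and were not tested by limma. The summed level of 9 fibroblast and mural cell markers was 10.1 and 10.9 FPKM in the controls versus 19.1 and 18.6 in the knockouts. That higher sum came from Tagln and Acta2, the 2 tested genes of that list, both called higher. The other 7 were under 1 FPKM in every library, and 6 of them, Col1a1, Col1a2, Col3a1, Dcn, Lum and Pdgfrb, were listed lower in both knockouts than in both controls. The same held for 20.7% of all genes tested. These 6 were below the filter and not tested, and nothing is read from their values. The summed level of 10 proliferation markers was 47.6 in both control libraries and 33.6 in both knockout libraries, with 2 of 10 called lower by limma and 4 by the authors. All 10 had negative log2 fold changes, 7 at an unadjusted p under 0.05 by limma. The summed level of 7 astrocyte markers was 568.8 and 537.5 FPKM in the controls versus 531.1 and 510.6 in the knockouts, and all 7 log2 fold changes were negative. Here limma called 0 of the 7, with 2 at an unadjusted p under 0.05, while the authors' deposited table calls 3 lower, Gfap (q = 0.0408), Slc1a2 (q = 7.95e-05) and Gja1 (q = 0.0159). Their part in the values of Tuba1b and Tuba1c was not tested. In such bulk RNA, a change in the share of a cell type and a change in RNA per cell cannot be told apart.

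Genes whose pattern over the 4 libraries lay nearest to those of the called members were found by the distance between log2(FPKM + 1) values centred on each gene's mean. For Tuba1b these were Meg3 (distance 0.037), Neu4 (0.049) and C1qtnf5 (0.059). For Tuba1c they were H19 (0.11), Slc13a3 (0.24) and Dll3 (0.25). This describes 4 libraries only.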

How the data were processed

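Per the labels' protocols, Trizol was used for total RNA and an Illumina TruSeq RNA kit for the 2 control and 2 knockout libraries. Per the submitters' processing notes, CASAVA, TopHat, Cufflinks and Cuffdiff and the build mm10 were used; the sources used here give no version, annotation, strand setting or treatment of multiply mapped reads. The authors deposited 1 table of gene FPKM per sample, and 1 Cuffdiff table with an FPKM per group, a log2 fold change, a p-value and a q-value, quoted as theirs.

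Rows of a symbol were summed (258 symbols, no member), and 9 symbols whose status was not OK were dropped. log2(FPKM + 1) of the 11361 genes averaging 1 FPKM or more was fitted with limma 3.58.1 (R 4.3.3, eBayes with trend, no covariate), knockout minus control, with Benjamini-Hochberg adjustment. The code was run on normal values simulated from the gene means and the fit's own variances. That run cannot test the calls, since it shares the assumptions of the fit. No count model was used because FPKM are not counts. Transcripts were aligned with Biopython 1.88.

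Members and gene lists were chosen with earlier results of these data known. The rule for named genes took the members, lncOL1, and in each of 6 tubulin lists the called genes, the 2 with the highest mean FPKM, and the 3 genes nearest in pattern to each called member. Mzt1, Tbcel, Ttll5, Ttl, Vash1, Svbp, Scaper and the cell type markers named singly were named after their values were seen. Pfdn6 and Svbp were matched by synonym in the RefSeq gene table (H2-Ke2 and Ccdc23). No protein sequences were used here. Sequences of the alpha members are not reported here.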

Additional observations from a re-analysis of the deposited data

How the results depend on the processing

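Counts of called genes depended on the setting. Against 60 higher and 89 lower, 1 and 3 were called with no filter on low values and 158 and 183 with the replicate number as a block. Leaving out 1 library gave 11 to 16 higher and 5 to 26 lower, with fewer residual degrees of freedom by construction and the lone sample of a group assumed to vary like the others. The other 6 alternatives stayed within 1.5 times. Same-numbered libraries did not deviate together (r = -0.052 across genes), and the labels do not pair them. The replicate block kept both member calls (adjusted p = 0.00145 for Tuba1b and 0.000192 for Tuba1c). The log2 fold changes of 4 beta members turned sign. The log2 fold change of Tubb3 was 0.0069 with quantile normalization. That setting moved the log2 fold change of Tubb4a from 0.01 to 0.16 (limma adjusted p = 0.206). It moved that of Tuba1a from 0.13 to 0.20 (limma adjusted p = 0.173). With 1 library left out, the log2 fold change ranged from -0.17 to 0.052 for Tubb2a, from -0.0061 to 0.18 for Tubb2b, from -0.031 to 0.022 for Tubb3 and from -0.031 to 0.049 for Tubb4a. The cause was not tested. Log2 fold changes of Tuba1b and Tuba1c kept their direction under all 12 alternatives, from 0.61 to 0.67 and from 1.16 to 1.33. None of these settings changes how shared reads were assigned, and the files give no counts from which this could be redone.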
